A study of Mus musculus with 12 samples.

Results

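Chemokine receptors steer neutrophils out of the marrow, through the blood and into tissue. The 5 genes described here are Cxcr2, Cxcr4, Cxcr3, Ccr1 and Ccrl2, listed by name and matched by gene symbol, out of 15986 genes in the files. All 5 passed the filter on low counts, which left 10802 genes tested. The cells were Ly6G-positive mature neutrophils from the bone marrow of C57BL/6 mice, taken by magnetic positive selection and kept for 6 h at 37C before polyA RNA was sequenced. They fell into 4 groups of 3 libraries each: Rab27aKO cells with 5 µM CpG-B, Rab27aKO cells without it, wild-type cells with 5 µM CpG-B and wild-type cells without it. CpG-B, here ODN 1826, is an unmethylated DNA oligonucleotide and a ligand of Toll-like receptor TLR9. Rab27a encodes a small GTPase of granule docking and exocytosis. Cells without CpG-B are named untreated or vehicle in different fields of the labels and are called unstimulated here. Every cell, unstimulated ones included, had spent the same 6 h in culture after selection. The sources used here state neither the knockout allele nor the sex, age or number of the mice. A p-value therefore reflects only how far these libraries spread, which may be technical.

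As background, chemokine receptors pass through the membrane repeatedly and signal through Gi proteins, whose beta-gamma subunits activate phosphoinositide 3-kinase gamma and phospholipase C beta. Receptor kinases, arrestins and RGS proteins then switch the signal off. In mouse neutrophils, Cxcr2 binds chemokines such as Cxcl1 and Cxcl2 and drives release from the marrow and recruitment, whereas Cxcr4 binds Cxcl12 and holds cells in the marrow. Ccr1 binds inflammatory CC chemokines, among them Ccl3, Ccl5, Ccl6 and Ccl9. Cxcr3 binds Cxcl9 and Cxcl10 and is best known from T and NK cells. Ccrl2 is an atypical receptor that binds chemerin without classical G protein signalling, and in mouse neutrophils it has been reported to pair with Cxcr2.

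In these libraries CpG-B raised Ccrl2 6.05-fold in the knockout and 5.44-fold in wild-type cells. Cxcr3, the scarcest of the 5 receptors, fell with CpG-B in the knockout to 0.337 of its unstimulated level. Cxcr4 was lower in unstimulated knockout cells than in unstimulated wild-type cells, at 0.708 of the level there, a difference that was near the threshold. Cxcr2 and Ccr1 passed the threshold in none of the 5 comparisons in the edgeR fit with TMM scaling and 1 mean per group. Other fits called Ccr1 with CpG-B in the knockout. A fit with library number as a block within genotype called all 5 receptors with CpG-B in wild-type cells. Ccrl2 was higher and the other 4 were lower there, where 16.9% of all genes were called. A change is called here at an adjusted p of 0.05 or less in the quasi-likelihood test of edgeR, adjusted by Benjamini-Hochberg over all 10802 genes.

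Total estimated counts ran from 10928823 to 15513280 per library. Rab27a, the targeted gene, had 113.5, 112.6 and 96.1 CPM (counts scaled to library size) in knockout cells with CpG-B and 129.4, 115.8 and 94.9 CPM in unstimulated knockout cells. Wild-type cells had 206.6, 216.1 and 285.2 CPM with CpG-B and 231.3, 250.9 and 334.7 CPM unstimulated. Its polyA RNA was therefore reduced below every wild-type library but still counted in every knockout library. The 12 mature neutrophil markers checked, which include Ly6g, S100a8 and Csf3r, summed to between 59836 and 80950 CPM in 11 libraries and to 47118 CPM in knockout library 2 with CpG-B. That library stood apart in S100a8, with 5377.5 CPM against 10300.7 to 15608.7 CPM in the others. Without it CpG-B in the knockout called 1 of the 5 receptors, Ccrl2 (log2 fold change 2.50, edgeR adjusted p = 0.000143). Knockout libraries differed among themselves in markers of other lineages, and same-numbered ones stood together. The 9 erythroid markers summed to 540, 1746 and 6328 CPM in knockout libraries 1, 2 and 3 with CpG-B and to 456, 1914 and 6291 CPM in the unstimulated ones, against 4441 to 5330 CPM in wild-type libraries with CpG-B and 4113 to 5400 CPM in unstimulated wild-type libraries. Markers of B and plasma cells ranged from 11.4 to 118.1 CPM in knockout cells with CpG-B and from 9.54 to 104.2 CPM in unstimulated knockout cells, against 42.4 to 49.3 and 31.7 to 40.1 CPM in wild-type cells with and without CpG-B. Markers of dendritic cells ranged from 12.6 to 73.7 and from 6.61 to 34.8 CPM in knockout cells with and without CpG-B, against 29.8 to 32.2 and 18.9 to 19.8 CPM in wild-type cells. In bulk RNA, fewer cells of a type and less RNA per cell cannot be told apart.

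Promoter sequences of the receptors are shown for Ccrl2, which rose with CpG-B in both genotypes, and for Ccr1, which did not rise in either and holds the same kind of motif. Both are RefSeq windows of build GRCm38.p6 on the minus strand, from 250 bases before to 50 bases after an annotated start, written 5′ to 3′. The Ccrl2 window is chr9:111057469-111057768 and belongs to the start of the transcript that carried most of its counts. The Ccr1 window is chr9:123968643-123968942. Capitals mark matches to the kappaB consensus, the motif of NF-kappaB factors.

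Ccrl2: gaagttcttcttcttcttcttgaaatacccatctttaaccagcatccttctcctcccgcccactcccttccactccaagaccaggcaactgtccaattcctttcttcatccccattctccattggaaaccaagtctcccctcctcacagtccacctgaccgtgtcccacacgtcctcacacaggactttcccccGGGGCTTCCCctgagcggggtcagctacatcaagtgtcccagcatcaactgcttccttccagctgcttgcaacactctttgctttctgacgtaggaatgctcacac

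Ccr1: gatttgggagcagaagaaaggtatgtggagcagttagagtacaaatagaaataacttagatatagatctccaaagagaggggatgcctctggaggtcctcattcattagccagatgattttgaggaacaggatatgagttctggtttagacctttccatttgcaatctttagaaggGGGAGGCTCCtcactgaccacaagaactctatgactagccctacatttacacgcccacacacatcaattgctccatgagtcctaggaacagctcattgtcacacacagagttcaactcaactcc

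The Ccrl2 match spans bases -56 to -47 from the start and was found on both strands, and the Ccr1 match spans bases -74 to -65. On either strand, 8.46% of the 32851 promoter windows in the same table held a kappaB match. The windows of Cxcr2, Cxcr4 and Cxcr3, and both other windows of Ccrl2, held none. Other motifs searched on both strands were the AP-1 motif TGANTCA, in 7.81% of all windows and in none of the 5 genes, and the interferon response motif, in 3.44% of all windows and in none of the 5 genes. The letters TATAAA, in 13.6% of all windows, lay at bases -30 to -25 of Cxcr4, where a match on the other strand overlapped them. The PU.1 core GAGGAAG, in 13.6% of all windows, lay on the minus strand of the Cxcr3 window at bases -15 to -9. A match describes letters only and is not evidence of binding.

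Between genes, levels were compared as TPM, which account for transcript length. The order of mean TPM was Cxcr2, Cxcr4, Ccr1, Ccrl2, Cxcr3 in every group. Knockout cells with CpG-B averaged 673.4 ± 165.0, 279.1 ± 33.9, 192.1 ± 12.5, 183.5 ± 55.8 and 3.20 ± 1.43 TPM for these genes in that order (SD, n = 3, as for the other groups). In unstimulated knockout cells the means were 681.2 ± 27.0, 333.5 ± 13.9, 269.9 ± 18.1, 32.1 ± 9.67 and 10.3 ± 3.19 TPM. Wild-type cells with CpG-B had 550.6 ± 42.5, 354.3 ± 19.9, 204.9 ± 8.59, 133.1 ± 42.9 and 2.63 ± 0.920 TPM. Unstimulated wild-type cells had 711.0 ± 153.6, 435.9 ± 24.0, 239.2 ± 19.9, 24.3 ± 5.86 and 4.49 ± 1.28 TPM. Neighbours in this order did not overlap between libraries, except Ccr1 and Ccrl2 in knockout cells with CpG-B, where Ccr1 was the higher in 1 of 3 libraries.

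**Figure D1:**
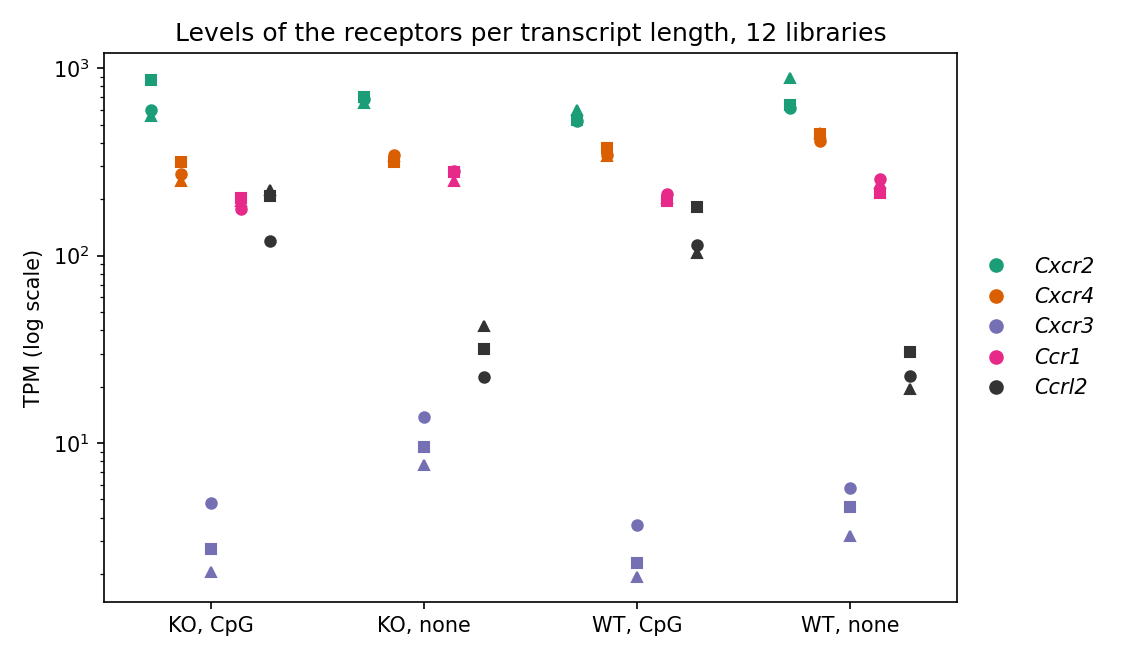
Deposited TPM of the 5 receptor genes (log axis) in the 12 libraries, grouped by genotype (KO or WT) and CpG-B or none, with circles, squares and triangles for libraries 1, 2 and 3 of a group. Ccrl2 comes up to the level of Ccr1 in the knockout libraries with CpG-B and lies well below it in the unstimulated ones, while Cxcr3 stays lowest in all groups.

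Ccrl2 had 164.2, 254.4 and 264.0 CPM in knockout cells with CpG-B, against 27.2, 38.9 and 46.5 CPM in unstimulated knockout cells. The ranges did not overlap, and the lowest stimulated library lay above the highest unstimulated one by a wide margin. The fitted log2 fold change was 2.60 ± 0.26 (SE), a 6.05-fold rise (edgeR adjusted p = 1.28e-05). In wild-type cells Ccrl2 had 139.8, 221.6 and 139.0 CPM with CpG-B, against 28.6, 37.9 and 25.4 CPM without it. These ranges did not overlap either, and the log2 fold change was 2.44 ± 0.26 (SE), a 5.44-fold rise (edgeR adjusted p = 3.86e-05). Taking same-numbered libraries together, the CPM ratio was higher with CpG-B in 3 of 3 numbers in each genotype, with log2 ratios of 2.51 to 2.71 in the knockout and 2.29 to 2.55 in wild-type cells. The call held in every alternative fit run, in both genotypes.

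The CpG-B rise of Ccrl2 differed between knockout and wild-type cells by 0.15 on the log2 scale (95% interval -0.59 to 0.90, interaction term). Ccrl2 did not pass the threshold between genotypes, with a log2 fold change of 0.45 ± 0.24 (SE) between knockout and wild-type cells with CpG-B and 0.29 ± 0.25 (SE) between the unstimulated ones (edgeR adjusted p = 0.351 and 0.619). Most of its counts went to 1 curated transcript, which carried 65.5 to 91.1% of them across libraries. Genes of the monocyte and macrophage marker list moved with Ccrl2: their summed level was 1497 to 1893 CPM in knockout cells with CpG-B and 747 to 810 CPM in unstimulated knockout cells, against 1461 to 1522 CPM and 963 to 984 CPM in wild-type cells with and without CpG-B. Of the 14 markers, 4 rose in the knockout (Csf1r, Adgre1, Lyz1 and Vcam1), where 7.57% of all genes rose. In wild-type cells 2 rose (Csf1r and Adgre1), where 4.74% of all genes rose, and none fell in either genotype. Csf1r, the receptor of a macrophage growth factor, had 693.2 to 944.7 CPM in knockout cells with CpG-B and 159.6 to 184.1 CPM without it, against 530.1 to 582.0 and 182.9 to 204.3 CPM in wild-type cells. The defining macrophage gene C1qa had 3.40 to 7.18 CPM in knockout cells with CpG-B and 2.46 to 5.27 CPM without it, against 5.51 to 17.2 and 5.43 to 15 CPM in wild-type cells. Among knockout libraries Ccrl2 was lowest in library 1 and highest in library 3, with and without CpG-B. The sums of dendritic cell, erythroid, B and plasma cell, NK cell, basophil and mast cell, and megakaryocyte and platelet markers had the same order. The part of these markers in the Ccrl2 result was not tested.

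Cxcr3 was counted at 63, 40 and 26 reads in knockout cells with CpG-B and at 145, 110 and 83 reads in unstimulated knockout cells, which is 5.50, 2.73 and 2.03 CPM against 13.7, 9.66 and 6.95 CPM. The groups did not overlap, and the log2 fold change was -1.57 ± 0.37 (SE; edgeR adjusted p = 0.0127). The call was lost without unstimulated knockout library 1 (adjusted p = 0.0657) and without knockout library 2 with CpG-B (0.0592). In wild-type cells Cxcr3 had 3.75, 2.29 and 2.16 CPM with CpG-B, against 5.97, 4.63 and 3.45 CPM without it. These ranges overlapped, and the log2 fold change of -0.77 ± 0.38 (SE) did not pass the threshold (edgeR adjusted p = 0.355). The CpG-B change in the knockout minus that in wild-type cells was -0.80 on the log2 scale (95% interval -1.95 to 0.34).

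Between genotypes, unstimulated knockout libraries all lay above unstimulated wild-type libraries for Cxcr3. The log2 fold change of 1.11 ± 0.36 (SE) did not pass the threshold (edgeR adjusted p = 0.113), although DESeq2 called it (adjusted p = 0.0491), as did the fits with library number as a block. With CpG-B the knockout ranged from 2.03 to 5.50 CPM and wild-type cells from 2.16 to 3.75 CPM, and the log2 fold change was 0.30 ± 0.39 (SE; adjusted p = 0.743), with the opposite sign, -0.20, without knockout library 1 with CpG-B. Library 1 was the highest for Cxcr3 in each of the 4 groups. Single markers of NK cells and T cells, which also carry Cxcr3, were low apart from Cd3d, at levels within reach of Cxcr3 itself. The 10 NK cell markers summed to 1.40 to 5.24 CPM over the 12 libraries. In the knockout the sums of NK cell, dendritic cell, and B and plasma cell markers were lowest in library 1 and highest in library 3. Cxcr3 had the reverse order there, with and without CpG-B, and the T cell sum had neither order. The 10 T cell markers in the files summed to 84.3 to 156.5 CPM in knockout cells with CpG-B and 127.2 to 159.6 CPM in unstimulated knockout cells, against 11.7 to 13.4 and 10.2 to 13 CPM in wild-type cells with and without CpG-B. Cd3d made up most of the knockout sums, with 75.7 to 151.2 CPM in knockout cells with CpG-B and 118.7 to 153.3 CPM in unstimulated knockout cells, against 3.11 to 4.65 and 3.21 to 6.53 CPM in wild-type cells. The defining T cell gene Cd3e had at most 0.391 CPM, Cd4 at most 2.89 CPM and Cd28 1.98 to 3.98 CPM. Of the 6 T cell markers tested 1 rose with CpG-B in the knockout, Cd8a, where 7.57% of all genes rose. None fell, where 4.06% of all genes fell. Cd8a had 0.785, 1.78 and 5.32 CPM in knockout cells with CpG-B and 0.0945, 0 and 0.503 CPM without it (edgeR adjusted p = 0.0185). Of the 10 dendritic cell markers, 7 were tested. With CpG-B 2 rose in the knockout, Bst2 and Zbtb46 (edgeR adjusted p = 0.00693 and 0.0156), where 7.57% of all genes rose. None rose in wild-type cells, where 4.74% of all genes rose. The list medians were 0.86 in the knockout and 0.42 in wild-type cells on the log2 scale, against -0.01 over all genes tested in each. Siglech, a marker of plasmacytoid dendritic cells, which also carry Cxcr3, had 0.174 to 0.704 CPM in knockout cells with CpG-B and 0.378 to 4.36 CPM without it, against 0.432 to 0.841 and 1.28 to 1.54 CPM in wild-type cells, and was not called (adjusted p = 0.188 in the knockout and 0.543 in wild-type cells). The part of these markers in the Cxcr3 result was not tested.

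**Figure D2:**
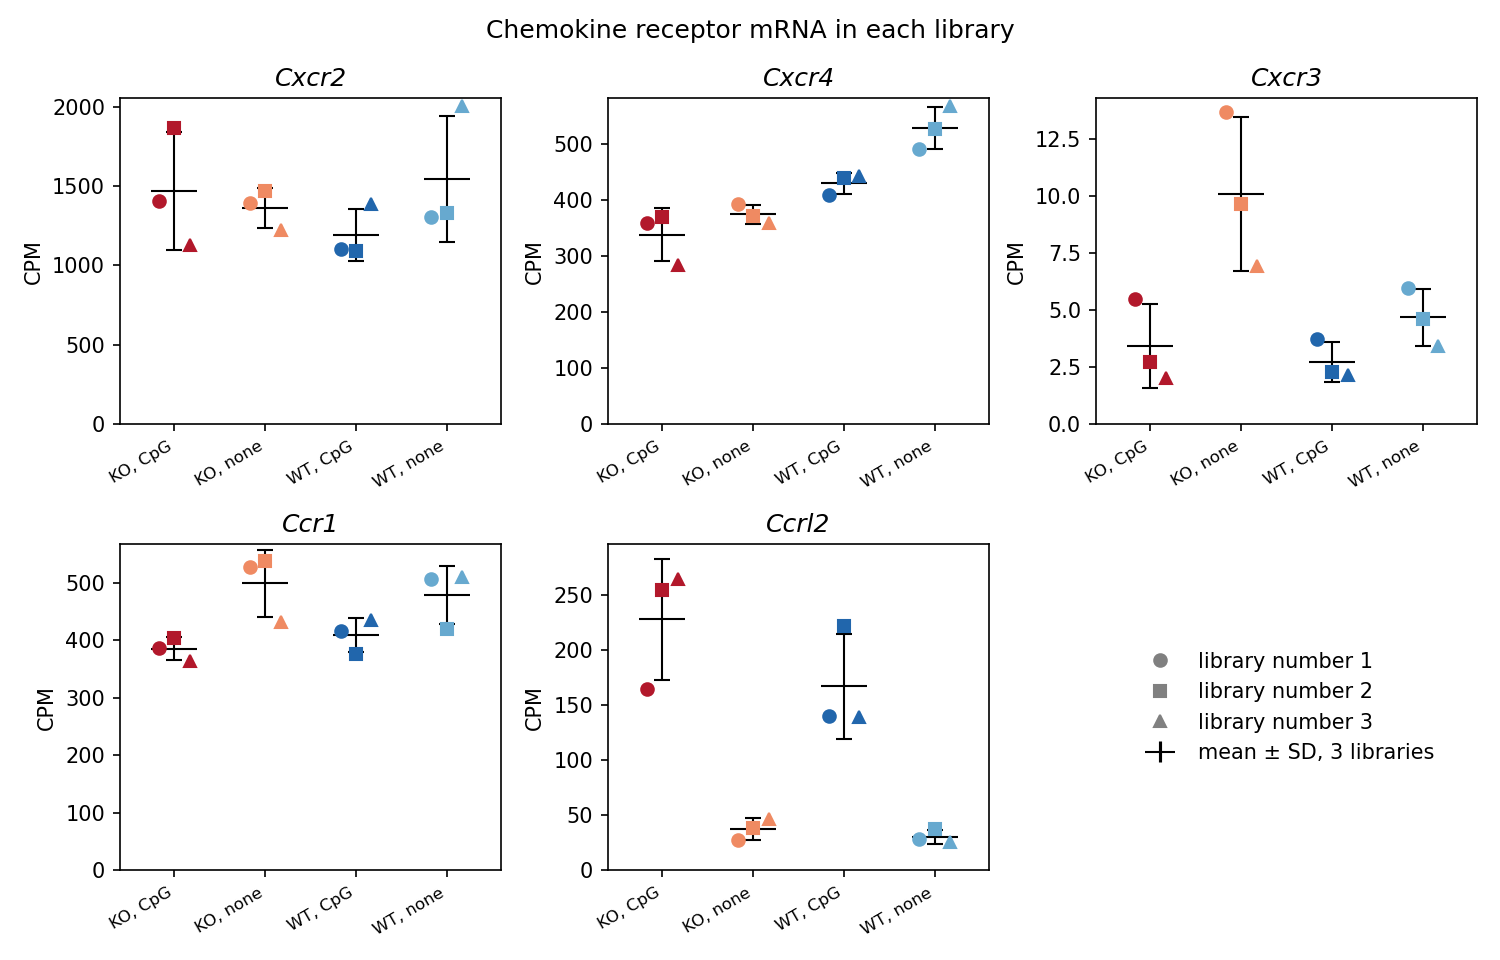
CPM of each receptor in the 12 libraries (each axis starts at 0), grouped by genotype (KO or WT) and CpG-B or none. Marker shapes give the library number, and black bars give the mean and SD of 3 libraries. Ccrl2 is separated by CpG-B in both genotypes, Cxcr3 in the knockout, and Cxcr4 by genotype both with and without CpG-B.

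Cxcr4 had 392.7, 371.7 and 359.2 CPM in unstimulated knockout cells, against 491.6, 526.5 and 568.0 CPM in unstimulated wild-type cells. No knockout library reached the lowest wild-type library, and the log2 fold change was -0.50 ± 0.12 (SE; edgeR adjusted p = 0.0239). The call rested on every unstimulated knockout library, being lost without any 1 of them (adjusted p = 0.0616, 0.109 and 0.0893 without library 1, 2 and 3). It was also lost without unstimulated wild-type library 2 (0.0565) or 3 (0.0947), without wild-type library 1 with CpG-B (0.0544) and with no filter on low counts (0.0501), with log2 fold changes of -0.53 to -0.43 throughout. Some markers of other cells were lower in the unstimulated knockout too. The monocyte and macrophage markers summed to 747 to 810 CPM there, against 963 to 984 CPM in unstimulated wild-type cells. None of the 14 was called by edgeR, where 4.75% of all genes were called. In this list F13a1, Ms4a6c and Fcgr1 had higher means in the unstimulated knockout (36.8, 6.2 and 1.14 CPM, against 30.1, 5.19 and 1.06 CPM). C1qa had 2.46 to 5.27 CPM in the unstimulated knockout, against 5.43 to 15 CPM in unstimulated wild-type cells. The platelet gene Pf4, called lower (edgeR adjusted p = 0.0421), had 0.189 to 0.703 CPM against 0.939 to 2.32 CPM. Their part in the Cxcr4 result was not tested. With CpG-B the knockout had 359.5, 370.3 and 283.9 CPM, against 408.2, 439.1 and 442.2 CPM in wild-type cells. These groups did not overlap either, but the log2 fold change of -0.35 ± 0.12 (SE) did not pass the threshold (edgeR adjusted p = 0.124). CpG-B changed Cxcr4 by -0.15 ± 0.12 (SE) on the log2 scale in the knockout and by -0.30 ± 0.12 (SE) in wild-type cells, neither called in the fit without library numbers (adjusted p = 0.529 and 0.190). The wild-type ranges with and without CpG-B did not overlap, and with library totals alone that change was called (adjusted p = 0.0454). The difference of these changes was 0.15 (95% interval -0.20 to 0.50).

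Of the 4 annotated transcripts of Cxcr4, the main curated one carried 80.7 to 86.8% of its counts and the second curated one 11.0 to 16.8%. A predicted transcript carried 0.58 to 1.13% in knockout cells with CpG-B and 0.32 to 0.89% in unstimulated knockout cells, against 1.54 to 2.12% and 1.01 to 1.96% in wild-type cells. Within a condition, no knockout library reached the lowest wild-type share. The other predicted transcript went the other way in unstimulated cells, with 1.80 to 2.02% in the knockout and 1.06 to 1.11% in wild-type cells, and overlapped with CpG-B, at 0.75 to 1.49% in the knockout and 0.90 to 1.23% in wild-type cells. These shares are the authors' estimate of how shared reads divide between overlapping transcripts, and no test was made on them.

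Cxcr2, the most abundant of the receptors, had 1408.6, 1864.3 and 1129.3 CPM in knockout cells with CpG-B and 1394.6, 1466.9 and 1224.9 CPM in unstimulated knockout cells. The ranges overlapped, and the log2 fold change was 0.11 ± 0.20 (SE; edgeR adjusted p = 0.838), with the opposite sign without knockout library 2 with CpG-B (-0.105). Wild-type cells had 1103.2, 1091.5 and 1384.2 CPM with CpG-B, against 1305.0, 1328.0 and 2005.8 CPM without it. Library 3 was the highest in both wild-type groups, and the log2 fold change was -0.37 ± 0.20 (SE; edgeR adjusted p = 0.406). The difference between the genotypes' changes was 0.48 (95% interval -0.13 to 1.10). Between knockout and wild-type cells the log2 fold change of Cxcr2 was 0.30 ± 0.20 (SE) with CpG-B and -0.18 ± 0.20 (SE) without it, neither called (edgeR adjusted p = 0.471 and 0.716), and the first was 0.12 without knockout library 2 with CpG-B. Its closest relative Cxcr1, which binds an overlapping set of chemokines, had 4.14 to 6.90 CPM in knockout cells with CpG-B and 4.69 to 8.17 CPM without it, against 5.78 to 10.4 and 6.39 to 10.8 CPM in wild-type cells.

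Ccr1 had 387.4, 404.7 and 364.5 CPM in knockout cells with CpG-B, against 528.1, 537.7 and 432.7 CPM in unstimulated knockout cells. The groups did not overlap, but the log2 fold change of -0.37 ± 0.12 (SE) missed the threshold (edgeR adjusted p = 0.0622). It was called by DESeq2 (adjusted p = 0.0214), with a filter of 1 CPM in 3 libraries (0.0281), with curated transcripts only (0.0465), with library totals alone (0.00461), and without unstimulated knockout library 3 (0.0184) or unstimulated wild-type library 2 (0.0257) or 3 (0.0480). The fit with library number as a block within genotype called it too. Wild-type cells had 415.6, 376.7 and 435.7 CPM with CpG-B, against 506.5, 420.5 and 509.9 CPM without it. These ranges overlapped, and the log2 fold change was -0.23 ± 0.12 (SE; edgeR adjusted p = 0.393). Between genotypes Ccr1 was not called, with log2 fold changes of -0.09 (95% interval -0.34 to 0.17) between knockout and wild-type cells with CpG-B and 0.06 (-0.20 to 0.32) between the unstimulated ones. The difference between the genotypes' CpG-B changes was -0.15 (95% interval -0.51 to 0.22). Its close relative Ccr1l1 had at most 0.176 CPM in any library.

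In the knockout, CpG-B called 2 of the 5 receptors, 1 higher and 1 lower, where 11.6% of all genes tested were called, 7.57% higher and 4.06% lower. In wild-type cells it called 1 of 5, higher, where 6.04% of all genes were called, 4.74% higher and 1.30% lower. The knockout effect called none of 5 in cells with CpG-B, where 3.92% of all genes were called, 1.70% higher and 2.21% lower. Before adjustment 1 of the 5, Cxcr4, passed 0.05 in edgeR there, and DESeq2 called none of them. The knockout effect called 1 of 5, lower, in unstimulated cells, where 4.75% of all genes were called, 2.11% higher and 2.64% lower. The interaction of genotype and CpG-B called none of the 5 and 0.00% of all genes in edgeR, with 365 genes but none of the receptors at an unadjusted p below 0.05. DESeq2 called 2 of all genes and none of the receptors. Both CpG-B comparisons share their unstimulated or stimulated libraries with the genotype comparisons, so their values are not independent of each other.

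**Figure D3:**
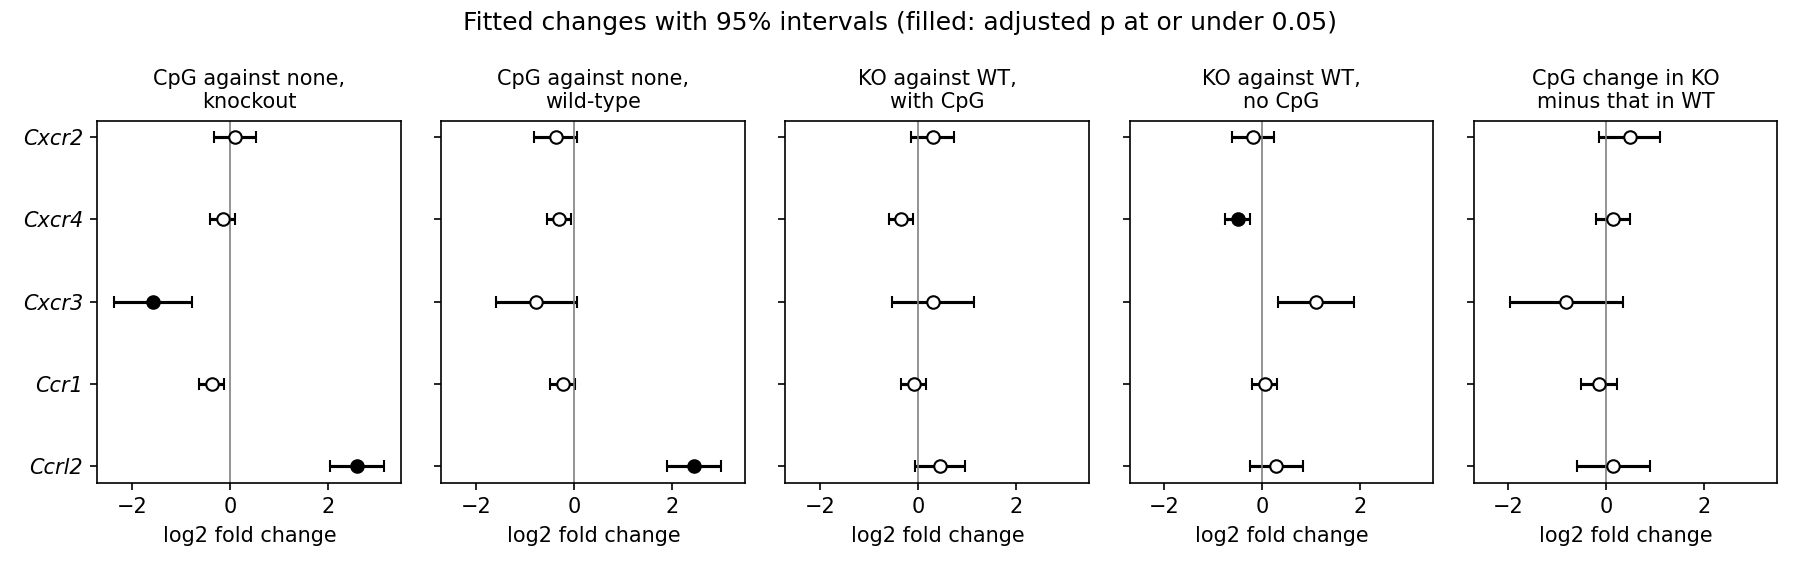
Fitted log2 fold changes of the 5 receptors with 95% intervals in the 5 comparisons, from the fit of all 12 libraries. Filled points were called at an adjusted p of 0.05 or less: Ccrl2 and Cxcr3 with CpG-B in the knockout, Ccrl2 with CpG-B in wild-type cells, and Cxcr4 between the unstimulated genotypes.

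Same-numbered wild-type libraries deviated together from their group means, so the CpG-B effect in wild-type cells was also fitted with library number as a block within each genotype. With this block all 5 receptors were called in wild-type cells, 1 higher and 4 lower, where 16.9% of all genes were called, 9.73% higher and 7.16% lower. The log2 fold changes were -0.35 for Cxcr2 (edgeR adjusted p = 0.0224), -0.30 for Cxcr4 (0.0174), -0.78 for Cxcr3 (0.0159), -0.22 for Ccr1 (0.0417) and 2.43 for Ccrl2 (7.34e-09). Each of Cxcr2, Cxcr4, Cxcr3 and Ccr1 was lower with CpG-B in 3 of 3 wild-type numbers. Their log2 ratios in wild-type cells were -0.54 to -0.24 for Cxcr2, -0.36 to -0.26 for Cxcr4, -1.01 to -0.67 for Cxcr3 and -0.28 to -0.16 for Ccr1.

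Other chemokine receptors of the family stood far below the abundant members. Of 22 listed, 21 were in the files and 11 passed the filter on low counts. In the knockout 3 of the 11 rose with CpG-B, where 7.57% of all genes tested rose, and none fell. In wild-type cells 2 rose, where 4.74% of all genes rose, and none fell. Between genotypes edgeR and DESeq2 called none of the 11, with 2 at an unadjusted p below 0.05 in cells with CpG-B and 1 in unstimulated cells. Of all genes, edgeR called 3.92% between genotypes with CpG-B and 4.75% without it. The median log2 fold change over the 11 was 0.77 in the knockout and 0.99 in wild-type cells, against -0.01 over all genes tested in each. Cmklr1, a signalling receptor of chemerin, the ligand that Ccrl2 also binds, had 2.58 to 4.99 CPM in knockout cells with CpG-B and 0.791 to 1.26 CPM without it, against 1.76 to 4.20 and 0.955 to 1.19 CPM in wild-type cells. It rose in both genotypes, with log2 fold changes of 1.90 in the knockout and 1.44 in wild-type cells (edgeR adjusted p = 0.00537 and 0.0438). Ccr7, the lymph node homing receptor, rose in the knockout (log2 fold change 2.35, adjusted p = 0.0306), where it had 3.40, 16.3 and 30.8 CPM with CpG-B, against 0.756, 2.99 and 6.03 CPM without it. Its order over knockout libraries 1, 2 and 3 was that of the B cell and dendritic cell marker sums. The sums of erythroid, NK cell, basophil and mast cell, and megakaryocyte and platelet markers had that order too. The part of these markers in the Ccr7 result was not tested. Ccr10 rose in wild-type cells (log2 fold change 2.19, edgeR adjusted p = 0.00987), with 1.35 to 1.61 CPM with CpG-B, against 0.171 to 0.401 CPM without it. These levels lie near the floor of the counts, which limits this fold change. In the knockout Ccr10 had 1.22 to 2.81 CPM with CpG-B and 0.878 to 1.26 CPM without it. It was not called there (log2 fold change 1.02, edgeR adjusted p = 0.117). With the block within genotype, 5 of the 11 rose in wild-type cells, among them Ccr7, Cxcr5, Ccr10 and Cmklr1, and 1 fell, Ccr2, the monocyte receptor, where 9.73% of all genes rose and 7.16% fell.

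Ligands of the 5 receptors were measured in the same libraries. Of 19 listed, 18 were in the files and 11 were tested, and with CpG-B 5 rose and 1 fell in the knockout, where 11.6% of all genes were called, while 6 rose and 1 fell in wild-type cells, where 6.04% were called. Their median log2 fold change was 0.75 in the knockout and 1.52 in wild-type cells, against -0.01 over all genes tested in each. Cxcl10, a Cxcr3 ligand, had 55.1, 111.7 and 174.5 CPM in knockout cells with CpG-B and 0.378, 0.878 and 1.09 CPM without it, against 15.9, 65.8 and 36.8 CPM in wild-type cells with CpG-B and 0.512, 0.881 and 0.882 CPM without it. Cxcl10 rose in both genotypes, with log2 fold changes of 7.15 in the knockout and 5.67 in wild-type cells (edgeR adjusted p = 5.62e-06 and 7.47e-05). The other Cxcr3 ligand measured, Cxcl9, was too low to be tested, with group means of 0.241 to 0.407 CPM. Cxcl10 and Ccl5 were lowest in knockout library 1 and highest in library 3, with and without CpG-B. So were Ccl3 and Cxcl2 with CpG-B, while Ccl6 with CpG-B had the reverse order and Cxcl1 neither. The dendritic cell and the B and plasma cell marker sums ran from lowest in library 1 to highest in library 3. The part of these markers in the ligand results was not tested.

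Of the Cxcr2 ligands, Cxcl2 had 52.2 to 62.9 CPM in knockout cells with CpG-B and 27.5 to 39.4 CPM without it, against 75.9 to 84.5 and 19.2 to 24.9 CPM in wild-type cells. Cxcl2 rose in both genotypes, with log2 fold changes of 0.91 in the knockout and 1.87 in wild-type cells (edgeR adjusted p = 0.000971 and 3.72e-06), as did the scarcer Cxcl1 (1.36 and 2.01). Of the Ccr1 ligands, Ccl5 rose by 4.10 in the knockout and 3.38 in wild-type cells on the log2 scale (edgeR adjusted p = 2.5e-05 and 0.000385), and Ccl3 by 0.94 and 1.80 (0.00282 and 3.06e-05). Ccl4 was called in wild-type cells (1.52, adjusted p = 0.0166) and had a log2 fold change of 0.75 in the knockout (adjusted p = 0.184). With the block within genotype, 7 ligands rose in wild-type cells, where 9.73% of all genes rose, Cxcl3 being the added one. Ccl6 went the other way, with 120.0 to 264.3 CPM in knockout cells with CpG-B and 314.7 to 573.1 CPM without it, against 165.9 to 210.1 and 319.5 to 430.3 CPM in wild-type cells. Ccl6 fell in both genotypes, with log2 fold changes of -1.36 in the knockout and -1.04 in wild-type cells (edgeR adjusted p = 0.00399 and 0.0339). Cxcl12, the Cxcr4 ligand, stayed at group means of 3.44 to 4.67 CPM and was called in none of the comparisons.

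Between genotypes, edgeR called 1 of the 11 ligands in unstimulated cells, where 4.75% of all genes were called. It called none in cells with CpG-B, where 3.92% were called. At an unadjusted p below 0.05 were 4 and 3 of the ligands, against 1903 and 1957 of the 10802 genes tested. DESeq2 called 3 in unstimulated cells (Cxcl2, Ccl3 and Ccl4) and 1 with CpG-B (Ccl5). With CpG-B DESeq2 also called more of all genes than edgeR did. Ccl3 had 29.6 to 33.5 CPM in unstimulated knockout cells, against 13.9 to 20.2 CPM in unstimulated wild-type cells, a log2 fold change of 0.88 (edgeR adjusted p = 0.0125). No ligand was called for the interaction by edgeR or DESeq2, where edgeR called 0.00% of all genes. In edgeR 2 of the ligands and 365 of all genes were at an unadjusted p below 0.05 for the interaction. The median log2 difference of the interaction was -0.48 over the 11, against 0.01 over all genes. Chemerin itself, encoded by Rarres2, had at most 0.294 CPM in any library.

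**Figure D4:**
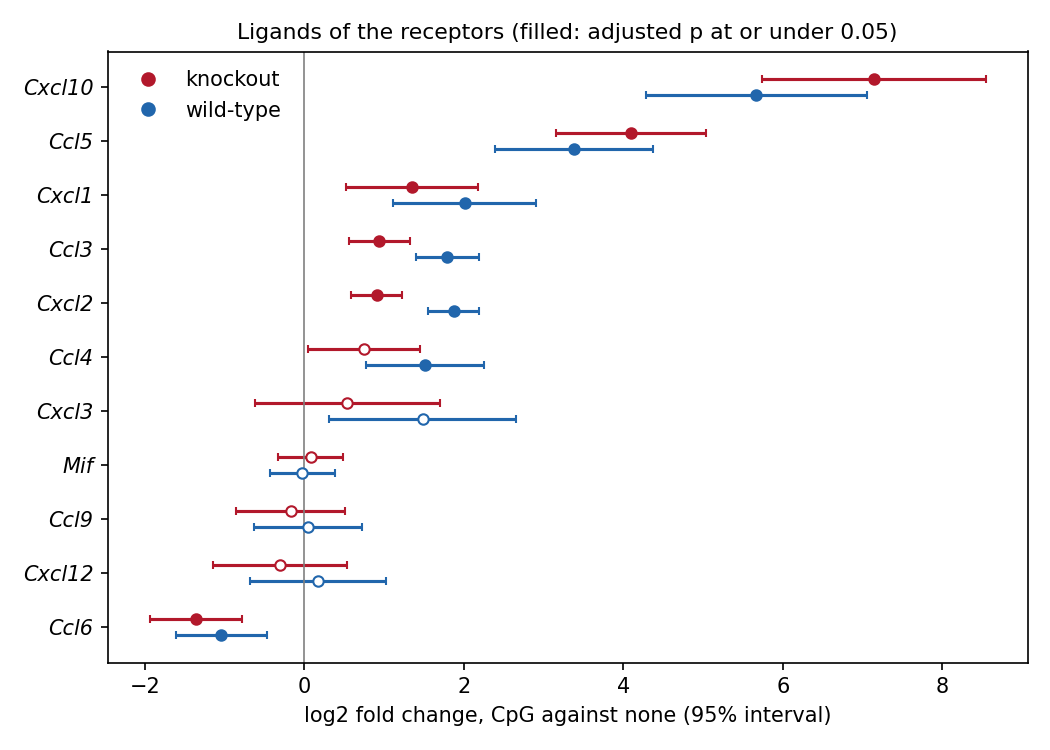
Fitted log2 fold changes with CpG-B of the 11 tested ligands of the receptors, with 95% intervals, in knockout (red, upper of each pair) and wild-type cells (blue, lower). Filled points were called at an adjusted p of 0.05 or less. Cxcl10 and Ccl5 rose most, and Ccl6 lies below 0 in both genotypes.

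Of 31 genes of receptor coupling and desensitisation, all tested, 5 rose and 3 fell with CpG-B in the knockout, where 7.57% of all genes rose and 4.06% fell, and 1 rose and 1 fell in wild-type cells, where 4.74% and 1.30% did. The wild-type count, 2 of 31, is near the background of 6.04%. With the block within genotype 7 rose and 7 fell in wild-type cells, where 9.73% of all genes rose and 7.16% fell, the receptor kinases Grk2 and Grk6 and the arrestin Arrb1 being among those that fell. The median log2 fold change over the list was 0.08 in the knockout and -0.01 in wild-type cells. Fgr, a Src-family kinase, and the phosphoinositide 3-kinase gamma subunits Pik3r6 and Pik3cg were called in the knockout (log2 fold changes 0.88, 0.98 and 0.46), as was the exchange factor Vav1 (0.49).

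Rgs2, which speeds GTP hydrolysis on G protein alpha subunits, fell with CpG-B in both genotypes, by 0.75 in the knockout and by 0.69 in wild-type cells on the log2 scale (edgeR adjusted p = 0.00882 and 0.0256). It was higher in knockout than in wild-type cells, with 318.3 to 515.1 CPM against 202.6 to 257.2 CPM with CpG-B and 586.2 to 762.8 CPM against 342.3 to 385.7 CPM unstimulated. The log2 fold change between genotypes was 0.89 with CpG-B and 0.95 without it (edgeR adjusted p = 0.00696 and 0.00369). Its relative Rgs1 fell with CpG-B in the knockout (log2 fold change -1.29, adjusted p = 0.00585) and was higher in unstimulated knockout than in unstimulated wild-type cells (1.04, adjusted p = 0.0407). The beta-gamma subunit gene Gng2 fell in the knockout (-0.91, adjusted p = 0.0336).

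For each receptor, genes most alike in pattern were found by Pearson r of log2 CPM over the 12 libraries among 7913 genes that averaged 5 CPM or more, as a description. The libraries share 4 groups, so they are not independent points. Among the nearest 3 for each, Ccrl2 had Bcl2a1b (r = 0.991), Trp53 (0.988) and Nfkbie (0.987). Nfkbie, which encodes an inhibitor of NF-kappaB, had group means of 138.9 CPM in knockout cells with CpG-B and 12.6 CPM without it, against 81.6 and 11.2 CPM in wild-type cells. Bcl2a1b has near-identical copies among which reads may be divided, so its level is uncertain. Among the nearest to Cxcr4 were Stim1 (0.963), Pde2a (0.962) and Adpgk (0.958). Pde2a, a cyclic nucleotide phosphodiesterase, averaged 290.2 CPM in knockout cells with CpG-B and 362.1 CPM without it, against 596.5 and 761.9 CPM in wild-type cells. Among the nearest to Cxcr3 were Macir (0.975), Mknk1 (0.974) and Cnr2 (0.964), to Ccr1 Vav3 (0.961) and Chd7 (0.946), and to Cxcr2 Prorsd1 (0.948) and Rrnad1 (0.945). Vav3, an exchange factor for small GTPases, averaged 83.3 CPM in knockout cells with CpG-B and 116.4 CPM without it, against 92.3 and 113.6 CPM in wild-type cells.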

How the data were processed

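PolyA RNA of 12 libraries was sequenced on an Illumina HiSeq4000, per the labels' protocols. The deposited tables give estimated counts and TPM per RefSeq transcript, made by the authors with RSEM 1.2.28 and Bowtie2 on GRCm39, per the submitters' processing notes. The sources used here do not state strandedness, so reads of overlapping antisense genes cannot be told apart. Counts were summed over 54716 transcripts to 15986 genes, 15883 of which matched a symbol, and rounded. Of all values 47.4% were not whole.

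Counts of all 12 libraries were fitted together in edgeR 4.0.16 (R 4.3.3), with 1 mean per group, TMM scaling, filterByExpr and the quasi-likelihood test. CPM use TMM-scaled totals, and TPM serve only for comparing genes. The spread between libraries was 17.1% (biological coefficient of variation). The fit was tested on simulated counts. Alternatives were DESeq2 1.42.0, other scalings and filters, curated transcripts only, a limma 3.58.1 voom fit with a block, and leaving out each library.

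Same-numbered libraries pair where their deviations from the group means correlate above 0.1 for every number. This held in wild-type cells (0.279, 0.408 and 0.437), not in the knockout (0.619, 0.085 and 0.678). The numbering is from the labels, which do not say what it marks.

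The receptors and gene lists were chosen with earlier results of these data known. Named were all 5 receptors, up to 5 called genes per list, ligands beside their receptors, the 3 genes nearest in pattern to each receptor and markers that moved with one. Grk2, Grk6 and Arrb1, Cxcr5, Ccr2, Cxcl3 and single markers were named after their values were seen. Promoters are RefSeq windows of GRCm38.p6, a build other than that of the counts. Some genes that this rule names are not reported here.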

Additional observations from a re-analysis of the deposited data

How the results depend on the processing

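Of 545 alternative values over 25 pairs of receptor and comparison, 512 kept their direction and side of the threshold, 9 lost a call, 18 gained one and 6 changed sign, all 6 on leaving out 1 library. Leaving out 1 library, the log2 change of Cxcr2 with CpG-B in the knockout ran from -0.105 to 0.26, with -0.003 without unstimulated library 3. That of Cxcr2 between unstimulated genotypes ran from -0.27 to 0.061, that of Cxcr3 between genotypes with CpG-B from -0.20 to 0.59, and the interaction of Ccrl2 from -0.036 to 0.43, with -0.029 without unstimulated knockout library 1.

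Receptors called for CpG-B in wild-type cells were 2 of 5 with library totals alone, 2 with the replicate block over all numbers and 5 with the block within genotype. For CpG-B in the knockout they were 1 to 3 on leaving out 1 library. Between genotypes with CpG-B 1 was called, Cxcr4, with library totals alone (adjusted p = 0.0126). Between unstimulated genotypes 2 were called with DESeq2, the replicate block or the block within genotype, 0 with no filter, and 0 to 1 on leaving out 1 library. In the knockout the numbers missed the 0.1 rule for pairing at number 2 only (0.085), while numbers 1 and 3 correlated at 0.619 and 0.678. There the block within genotype also called Ccr1 with CpG-B (adjusted p = 0.00185), and every library correlated best with its own number, a hint from the data and not the design.

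Of all genes, the block within genotype called 2591 for CpG-B in the knockout, 1824 for CpG-B in wild-type cells and 13 for the interaction. Curated transcripts gave 424 for CpG-B in wild-type cells, and 227 with and 283 without CpG-B between genotypes. Between genotypes with CpG-B, DESeq2 gave 716 and the fit of those groups alone 253, and for the interaction DESeq2 gave 2. Leaving out 1 library gave 817 to 1347 for CpG-B in the knockout, 425 to 758 in wild-type cells, and 234 to 699 with and 278 to 604 without CpG-B between genotypes. The cause of these shifts was not tested. Cxcr4 between unstimulated genotypes was -0.39 as the log2 ratio of deposited TPM means. Low counts limit Cxcr3, whose libraries hold 25 to 145 reads.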

Other observations

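The TPM ratio of Cxcr2 to Cxcr4 is a measure chosen after the values were seen. It was 2.20, 2.73 and 2.24 in knockout cells with CpG-B and 2.00, 2.22 and 1.92 in unstimulated knockout cells. Wild-type cells had 1.52, 1.40 and 1.76 with CpG-B and 1.49, 1.42 and 1.96 unstimulated. With CpG-B every knockout library lay above every wild-type library, and without it the ranges overlapped. An exact permutation test of the log2 ratio between genotypes with CpG-B gave p = 0.1 (adjusted p = 0.267 over 4 comparisons). With 3 libraries per group 0.1 is the smallest p that this test can give, so it cannot decide.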
